A study of Mus musculus with 6 samples.

Results

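The 36 genes described here encode the mitochondrial citrate carrier and the enzymes and regulators that turn citrate into fatty acids and cholesterol. The carrier gene, Slc25a1, was picked from these data on its measured rise after Ybx1 knockdown. The other 35 genes were listed for their known role in the same route, with earlier results of these data known. All 36 were among the 17920 genes listed, and all 36 were among the 13669 genes that passed the filter on low counts. The question was whether the rise of the carrier gene came with higher levels of the genes that use its product.

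Citrate is made inside mitochondria and leaves them through the protein encoded by Slc25a1. In the cytosol it is split into acetyl-CoA, which feeds both the chain-building enzymes of fatty acid synthesis and the mevalonate pathway to cholesterol. Embryonic brain cells make much of their own cholesterol and membrane lipid, and the transcription factors SREBP1 and SREBP2 switch on most of these enzymes when sterols run low.

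RNA was measured by RNA-seq in 6 libraries of cells taken from the mouse cortex at the embryonic stage E13.5, grown in culture and infected with lentivirus. The 3 control libraries, called WT after their titles, came from cells given a control virus, and the 3 KD libraries came from cells given a virus with a short hairpin RNA against Ybx1, which encodes an RNA-binding protein that reads 5-methylcytosine. Both groups carried the pLKO.1-Puro vector and were exposed to puromycin, which kills uninfected cells, before collection. Age was the same in both groups, no other allele or agent is named for either, and which hairpin was used in these libraries is not stated. The titles speak of cortex and the series text of a deletion, but the study's methods describe cultured cells with a knockdown, so the KD libraries hold mixed cultures with part of the Ybx1 transcript left. How many embryos went into each library is not given in the sources used here.

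The 6 libraries held from 16294635 to 16497505 estimated counts each, so depth was close to equal. The lowest count of any of the 36 genes in any library was 127, in Ebp. Counting error weighs more on Ebp and other genes with few counts than on the rest. Ybx1 was at 618, 615 and 653 CPM (normalised counts on a common library scale, after TMM scaling) in WT replicates 1, 2 and 3 and at 98.3, 92.2 and 159 CPM in KD replicates 1, 2 and 3. KD replicate 3 kept 25.3% of the WT mean of Ybx1, against 15.6% and 14.7% in KD replicates 1 and 2. Of the 5 markers of cortical identity, 2 rose and 0 fell, while all 6 microglial markers were under 1 CPM. Of 8 radial glia markers 2 rose (4 with the replicate number as a block), and of 7 neuronal markers 1 rose and 1 fell (2 and 1 with the block). Of 5 ventral GABAergic markers 1 rose, Dlx2 by 1.23 on the log2 scale (2 higher and 1 lower with the block), and of 3 tested fibroblast and mural markers 1 rose, Pdgfrb by 0.72. Of 6 markers of the oligodendrocyte lineage 1 fell (3 with the block), and of 5 tested astrocyte and 2 tested endothelial markers 0 passed. Over all genes tested, 12% rose and 11.9% fell, or 18.6% and 18.1% with the block. All 4 markers of intermediate progenitors (Eomes, Neurog2, Insm1 and Btg2) rose, with a summed level of 61.3 to 74.7 CPM in WT and 130 to 162 CPM in KD. RNA was taken from whole cultures, where fewer cells of a type and less RNA per cell cannot be told apart, and the part of this shift in the results on lipid genes was not tested.

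The rise of the citrate carrier gene was not accompanied by a general rise of lipid synthesis genes. In KD, 5 of the 36 genes were higher past the threshold (an adjusted P of 0.05 in the quasi-likelihood test of edgeR, with Benjamini-Hochberg correction over all genes tested) and 15 were lower, while 16 did not pass. The 5 were Slc25a1, the cytosolic thiolase gene Acat2, the desaturase gene Scd2, the regulator Srebf1 and the sterol reductase gene Lbr. Without Slc25a1, which was picked for its rise, 4 of the 35 genes were higher and 15 were lower. Over all genes tested, 12% were higher and 11.9% were lower. The median log2 fold change was -0.20 over the 35 genes without Slc25a1 and 0.00 over all genes tested. Because Slc25a1 was picked from this contrast and the list was drawn up with its results known, these counts are a description.

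Slc25a1 lies at chr16:17925211-17928219 of the mouse build GRCm38.p6, on the minus strand, and no annotated gene overlaps it. It was at 29.1, 27.0 and 28.2 CPM in WT and at 92.8, 95.5 and 117 CPM in KD. Every KD library lay far above every WT library, and KD replicate 3, which kept the most Ybx1, was the highest. The mean rose from 28.1 ± 1.06 to 102 ± 13.2 CPM (SD, n = 3), a 3.62-fold difference or 1.86 on the log2 scale (SE 0.09). By log2 fold change it ranked 5 among the 13669 genes tested, and since it was picked for this rise no test of it is given.

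Set against the other mitochondrial carriers of its family, the gene moved up the order of abundance. On the TPM scale, which divides by transcript length, Slc25a1 ranked 13, 16 and 13 of 46 carrier genes in the WT libraries and 6 of 46 in each KD library. It supplied 1.28% ± 0.10 of the summed carrier TPM in WT and 4.87% ± 0.57 in KD (SD, n = 3). Of the 38 other carrier genes tested, 2 rose and 3 fell, or 3 and 9 with the replicate block (same-numbered libraries compared with each other). Over all genes tested, 12% rose and 11.9% fell, or 18.6% and 18.1% with the block. The falls on the log2 scale were in Slc25a23 (-0.54), Slc25a39 (-0.41) and Slc25a25 (-0.37), the last with fractional counts throughout, and Slc25a51, which carries NAD into mitochondria, rose by 0.35. Of the nearest 10 tested genes on the chromosome, 0 were higher and 1, Klhl22, was lower past the threshold, and with the replicate block 1 was higher and 2 were lower. The highest was Car15, 87.0 kb away and named after its values were seen, with a log2 difference of 0.58 (adjusted P = 0.0767, or 0.031 with the replicate block). The adjoining tested genes Ess2, 13.9 kb away, and Dgcr6, 124.6 kb away, differed by -0.08 (adjusted P = 0.457) and -0.10 (adjusted P = 0.395) on the log2 scale.

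The sequences before the start sites are shown for 4 genes that behaved differently, to set them side by side. Each line gives the 250 bases upstream of the RefSeq start site of GRCm38.p6, written along the gene's own strand, with matches to the searched motifs in capitals. The windows are chr16:17928220-17928469 on the minus strand for Slc25a1, which rose, chr17:12960726-12960975 on the minus strand for Acat2, which rose, chr5:114444019-114444268 on the plus strand for Mvk, which fell, and chr13:119690101-119690350 on the plus strand for Hmgcs1, which did not pass the threshold. The bases just after the start were found in a GENCODE transcript of the same gene for Slc25a1, Acat2 and Mvk but not for Hmgcs1, and for 29 of the 36 windows searched, so the start used for Hmgcs1 is less certain.
Slc25a1: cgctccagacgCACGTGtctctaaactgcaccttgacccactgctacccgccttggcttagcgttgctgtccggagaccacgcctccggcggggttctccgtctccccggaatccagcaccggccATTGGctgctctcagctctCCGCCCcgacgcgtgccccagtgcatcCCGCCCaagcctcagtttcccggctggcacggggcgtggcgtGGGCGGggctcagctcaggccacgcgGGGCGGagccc
Acat2: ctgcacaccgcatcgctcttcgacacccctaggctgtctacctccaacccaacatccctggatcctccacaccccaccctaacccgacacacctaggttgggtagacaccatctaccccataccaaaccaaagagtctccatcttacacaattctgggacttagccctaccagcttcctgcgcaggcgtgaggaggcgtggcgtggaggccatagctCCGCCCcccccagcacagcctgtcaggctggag
Mvk: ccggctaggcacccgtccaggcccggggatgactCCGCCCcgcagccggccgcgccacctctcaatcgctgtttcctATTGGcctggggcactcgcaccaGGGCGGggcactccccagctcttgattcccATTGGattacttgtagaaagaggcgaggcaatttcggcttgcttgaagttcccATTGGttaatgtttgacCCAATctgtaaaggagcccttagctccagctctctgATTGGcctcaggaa
Hmgcs1: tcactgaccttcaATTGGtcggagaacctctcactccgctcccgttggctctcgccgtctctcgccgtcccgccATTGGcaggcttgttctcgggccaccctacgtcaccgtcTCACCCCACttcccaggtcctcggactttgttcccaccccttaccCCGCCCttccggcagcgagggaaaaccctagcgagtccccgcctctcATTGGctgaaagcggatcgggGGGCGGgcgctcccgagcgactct

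The motifs searched on both strands were CCAAT, the site of the factor NF-Y, GGGCGG, the GC box of Sp-family factors, CACGTG, an E-box, and TCACNCCAC, a form of the sterol regulatory element. Each motif was counted on its own, including where matches lay against each other. In the full windows, which add the 50 bases after the start, Slc25a1 held 2 NF-Y sites, 4 GC boxes and 1 E-box by these letters. Acat2 held 1 GC box, Mvk held 5 NF-Y sites and 2 GC boxes, and Hmgcs1 held 4 NF-Y sites, 3 GC boxes and the sterol regulatory form. Windows were found for 29 of the 36 genes, some with several start sites (36 windows in all). Fdft1, Stard4, Scd2, Fdps, Scd1, Fads1 and Sqle had none in the table. CCAAT was present in 24 of the 29, against 43.4% of the 10899 tested genes with a window and 41.1% of all 27025 genes with one. GGGCGG was also present in 24 of 29, against 68.9% of the tested genes and 38.2% of all. The E-box was present in 7 of 29, against 11.6% and 8.09%, and TCACNCCAC was present only in Hmgcs1 among the 29, against 1.39% and 1.44%. CCAAT was found in 3 of the 4 genes with a window that rose, 9 of 12 that fell and 12 of 13 that did not pass, so genes of all 3 outcomes held it. A match to these letters is a description of the sequence and does not show that a factor binds there.

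**Figure D1:**
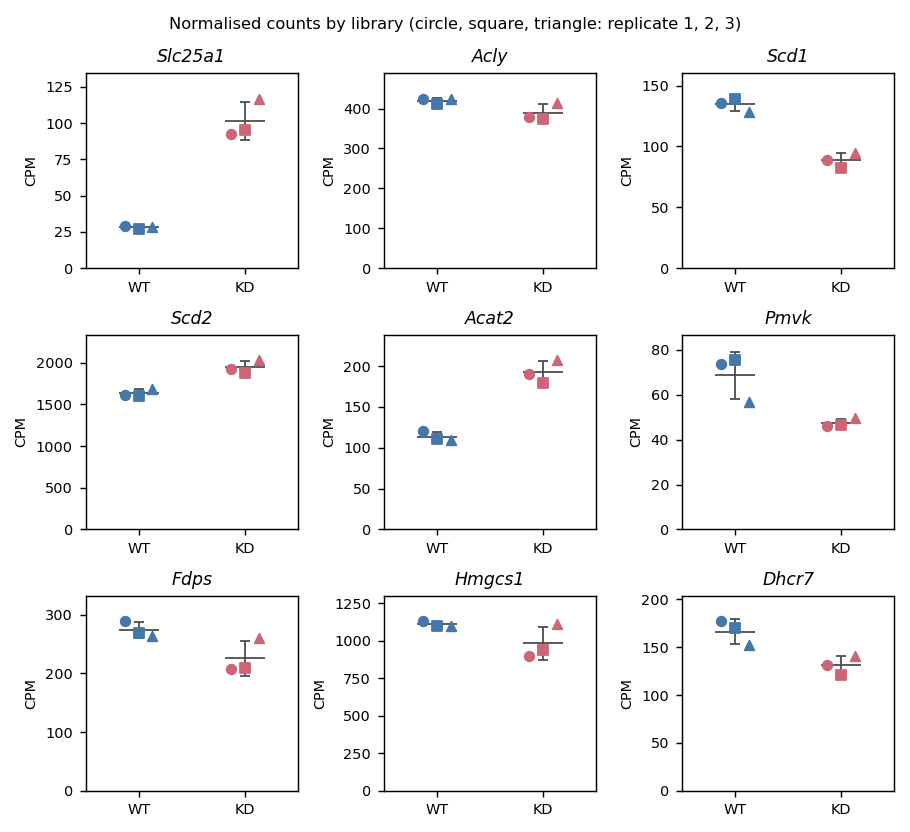
Normalised counts (CPM, vertical axis, from 0) of 9 genes in the 3 WT libraries (blue) and the 3 KD libraries (red). Circles, squares and triangles are replicates 1, 2 and 3, and bars are the mean with its SD. Slc25a1, Scd2 and Acat2 lie higher in every KD library than in any WT library, Scd1, Pmvk, Fdps and Dhcr7 lie lower, and in Acly and Hmgcs1 the groups overlap, with KD replicate 3 at the WT level.

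None of the other 3 genes that handle citrate and acetyl-CoA around the carrier passed the threshold. Acly, the enzyme that splits exported citrate, was at 425, 411 and 423 CPM in WT and 379, 373 and 414 CPM in KD. KD replicate 3 lay inside the WT range, and the log2 difference was -0.11 (SE 0.05, adjusted P = 0.148). The ratio of Slc25a1 to Acly transcripts, in TPM, went from 0.199 ± 0.00409 in WT to 0.778 ± 0.0582 in KD (SD, n = 3). Acss2, which makes acetyl-CoA from acetate, differed by -0.10 on the log2 scale (adjusted P = 0.516). Me1, the malic enzyme that supplies NADPH for lipid synthesis, was at 76.2, 93.3 and 91.2 CPM in WT and 65.9, 76.8 and 83.9 CPM in KD. The groups of Me1 overlapped, with adjusted P = 0.18, but each KD library was below its same-numbered WT library, and with the replicate number as a block adjusted P was 0.00918.

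In fatty acid synthesis, the chain-building enzymes did not pass the threshold and the desaturases moved in opposite directions. Acaca, which commits acetyl-CoA to fatty acids, differed by 0.05 on the log2 scale (adjusted P = 0.615), and Fasn, the fatty acid synthase, differed by -0.09 (adjusted P = 0.308). Of the 8 genes, 1 rose, 3 fell and 4 did not pass, where 12% of all genes rose and 11.9% fell. Acaca overlaps other annotated genes, and strand use in the counting is not stated.

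Scd1 and Scd2 encode related enzymes that put a double bond into saturated fatty acids, Scd2 being the main form in the developing brain. Scd1 was at 136, 139 and 129 CPM in WT and 88.6, 82.6 and 94.7 CPM in KD. All KD libraries were below all WT libraries, and Scd1 fell by 0.60 on the log2 scale (SE 0.06, adjusted P = 0.000632). Scd2 was at 1610, 1596 and 1687 CPM in WT and 1929, 1872 and 2033 CPM in KD. All KD libraries were above all WT libraries, and Scd2 rose by 0.25 on the log2 scale (SE 0.05, adjusted P = 0.00567). The Scd2 to Scd1 ratio in TPM was 10.4, 10.1 and 11.5 in WT and 19.2, 20.0 and 18.9 in KD. The ratio was therefore higher in every KD library, although the neighbouring genes share sequence and their counts were fractional in 1 library each.

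Other enzymes that shape fatty acid chains were lower or did not pass. Elovl6, which lengthens saturated chains, fell by 0.18 on the log2 scale (adjusted P = 0.037). Fads2, which desaturates polyunsaturated fatty acids, was at 486, 516 and 585 CPM in WT and 407, 430 and 467 CPM in KD and fell by 0.28 (adjusted P = 0.0268). Its partner Fads1 differed by 0.05 (adjusted P = 0.49). Elovl5, which lengthens polyunsaturated chains, was between 82.5 and 82.9 CPM in WT and between 72.9 and 77.7 CPM in KD, a log2 difference of -0.14 that missed the threshold (adjusted P = 0.0648, or 0.047 with the replicate block) although the groups did not overlap. Among 17 further genes of elongation and fatty acid activation, 0 were higher and 5 were lower, or 0 and 6 with the replicate block. Over all genes tested, 12% were higher and 11.9% lower, or 18.6% and 18.1% with the block. The 5 included Acsl1 (-0.48), Hsd17b12 (-0.32), Acsl4 (-0.28) and Mid1ip1 (-0.26).

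**Figure D2:**
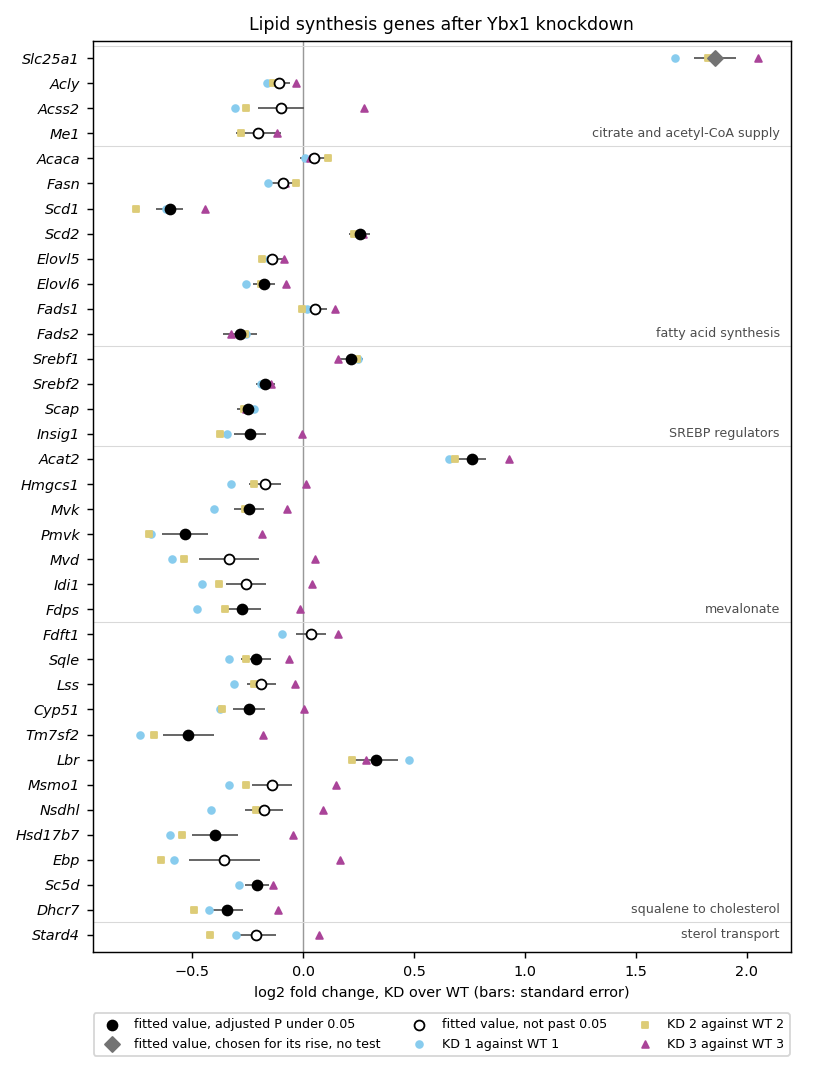
Log2 fold change of KD over WT (horizontal axis) for the 36 genes in the order of their roles. Large symbols are fitted values with standard errors, filled where adjusted P was under 0.05 and open where it was not, with a grey diamond for Slc25a1, and small symbols are the KD to WT differences of replicates 1, 2 and 3. Most values lie between 0 and -0.60, Slc25a1 stands alone at 1.86, and the triangles of the third pair sit nearest 0 in most sterol genes.

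All 4 regulators of the SREBP system passed the threshold, 1 higher and 3 lower, where 12% of all genes rose and 11.9% fell. Under the 15 alternatives run, Scap passed in all 15, Srebf1 in 11, Srebf2 in 10 and Insig1 in 9. Srebf1, which encodes SREBP1, the factor linked to fatty acid synthesis, was at 126, 116 and 123 CPM in WT and 149, 137 and 137 CPM in KD. The groups did not overlap, and Srebf1 rose by 0.21 on the log2 scale (SE 0.06, adjusted P = 0.0246). Srebf2, which encodes SREBP2, the factor linked to cholesterol synthesis, was at 485, 467 and 460 CPM in WT and 425, 415 and 415 CPM in KD. It was lower in each KD library and fell by 0.17 (adjusted P = 0.0202). The ratio of Srebf1 to Srebf2 in TPM went from 0.295 ± 0.0104 to 0.383 ± 0.0153 (SD, n = 3). Srebf1 overlaps the annotated gene Rai1, and reads do not show whether the proteins were processed.

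The carriers and anchors of these factors also differed. Scap, which escorts SREBP to the site of its cleavage, was at 126, 127 and 133 CPM in WT and 108, 105 and 111 CPM in KD, and fell by 0.25 on the log2 scale (SE 0.05, adjusted P = 0.00714). Insig1, which holds Scap back when sterols are plentiful and is itself an SREBP target, fell by 0.24 (adjusted P = 0.04). Among 8 further genes of SREBP processing, 3 rose and 0 fell, or 3 and 1 with the replicate block. Over all genes tested, 12% rose and 11.9% fell, or 18.6% and 18.1% with the block. The 3 were Insig2, the paralog of Insig1, with 0.51 (adjusted P = 0.0298), Erlin2 with 0.34 (adjusted P = 0.00272) and the SREBP protease gene Mbtps1 with 0.26 (adjusted P = 0.0147). The Insig2 to Insig1 ratio in TPM was 0.149, 0.140 and 0.106 in WT and 0.267, 0.241 and 0.208 in KD, higher in every KD library.

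In the mevalonate pathway, the gene at its entry rose and 3 of the 6 genes after it fell, where 12% of all genes rose and 11.9% fell. Acat2 encodes the cytosolic thiolase that joins acetyl-CoA units, and it lies at chr17:12943042-12960725. It was at 121, 111 and 109 CPM in WT and 191, 179 and 208 CPM in KD. Every KD library was above every WT library, and Acat2 rose by 0.76 on the log2 scale (SE 0.07, adjusted P = 0.00037), the largest change of the 35 genes besides Slc25a1. Its counts were fractional in all 6 libraries, so part of them was divided among sequences it shares. The annotated gene Gm20591 overlaps Acat2, and strand use in the counting is not stated. Acat3, a close copy, was between 0.82 and 1.21 CPM in the 6 libraries. The mitochondrial thiolase gene Acat1, compared after its values were seen, fell by 0.33 (adjusted P = 0.00243), and the Acat2 to Acat1 ratio in TPM went from 0.718 ± 0.0505 to 1.53 ± 0.0986 (SD, n = 3).

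The 3 genes after Acat2 that fell were Pmvk, Mvk and Fdps. Hmgcs1, the HMG-CoA synthase, was at 1131, 1099 and 1102 CPM in WT and 902, 941 and 1110 CPM in KD. KD replicates 1 and 2 were below all WT libraries and KD replicate 3 was level with them, and the log2 difference was -0.17 (adjusted P = 0.112, or 0.0177 with the replicate block). Pmvk, which phosphorylates mevalonate phosphate, was at 73.9, 75.5 and 56.5 CPM in WT and 45.9, 46.7 and 49.6 CPM in KD. The groups did not overlap, although WT replicate 3 was low, and Pmvk fell by 0.53 on the log2 scale (SE 0.10, adjusted P = 0.00767).

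Mvk, the mevalonate kinase, fell by 0.24 on the log2 scale (adjusted P = 0.034). Fdps, which makes farnesyl diphosphate, the last step shared with protein prenylation, was at 289, 268 and 263 CPM in WT and 207, 210 and 260 CPM in KD. It fell by 0.28 (adjusted P = 0.0474), with KD replicate 3 just under the lowest WT library. Mvd, the decarboxylase, was at 90.7, 84.6 and 83.8 CPM in WT and 60.1, 58.3 and 87.1 CPM in KD. KD replicate 3 of Mvd lay within the WT range, and the log2 difference of -0.33 did not pass (adjusted P = 0.106, or 0.00899 with the replicate block). Idi1, the isomerase, differed by -0.26 (adjusted P = 0.0662, or 0.0119 with the replicate block), with fractional counts in all 6 libraries.

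From squalene to cholesterol, 1 of 12 genes rose, 6 fell and 5 did not pass, where 12% of all genes rose and 11.9% fell. Fdft1, the squalene synthase that commits farnesyl units to sterols, differed by 0.04 on the log2 scale (adjusted P = 0.733), with fractional counts in all libraries and an overlap with Ctsb. Sqle, the epoxidase that follows it, was at 257, 243 and 249 CPM in WT and 204, 203 and 238 CPM in KD and fell by 0.21 (adjusted P = 0.0457). Lss, which closes the ring to lanosterol, differed by -0.19 and did not pass (adjusted P = 0.0661, or 0.019 with the replicate block), although its groups did not overlap. Cyp51, the lanosterol demethylase, fell by 0.25 (adjusted P = 0.0377), with KD replicate 3 at 278 CPM, above WT replicate 3 at 277 CPM.

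The next step, reduction of the sterol ring by a C14 reductase, can be carried out by the products of Tm7sf2 and Lbr, and these moved apart. Tm7sf2 was at 25.0, 26.0 and 23.1 CPM in WT and 15.0, 16.4 and 20.4 CPM in KD. All KD libraries were below all WT libraries, and Tm7sf2 fell by 0.52 on the log2 scale (SE 0.12, adjusted P = 0.0136). Lbr, whose product is also the lamin B receptor of the nuclear envelope, was at 19.5, 20.2 and 17.9 CPM in WT and 27.2, 23.5 and 21.8 CPM in KD. All KD libraries were above all WT libraries, and Lbr rose by 0.33 (SE 0.10, adjusted P = 0.0394). The Lbr to Tm7sf2 ratio in TPM was between 0.282 and 0.284 in the WT libraries and was 0.657, 0.521 and 0.388 in KD replicates 1, 2 and 3. The annotated gene Vps51 overlaps only a few bases at 1 end of Tm7sf2, and the counts of both genes were whole in all 6 libraries.

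Among the later sterol enzymes, Dhcr7, which completes the cholesterol ring system, was at 177, 170 and 152 CPM in WT and 132, 121 and 140 CPM in KD. Its groups did not overlap, and it fell by 0.34 on the log2 scale (SE 0.07, adjusted P = 0.0116). Sc5d, the sterol desaturase before it, fell by 0.21 (adjusted P = 0.0229), and Hsd17b7, a ketosteroid reductase, fell by 0.40 (adjusted P = 0.0248). The demethylation enzyme genes Msmo1 (-0.14, adjusted P = 0.282) and Nsdhl (-0.18, adjusted P = 0.17) and the isomerase gene Ebp (-0.36, adjusted P = 0.138) missed the threshold, and in each of the 3 genes KD replicate 3 lay above the lowest WT library. Stard4, which moves sterol between membranes, differed by -0.21 (adjusted P = 0.116, or 0.0468 with the replicate block).

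**Figure D3:**
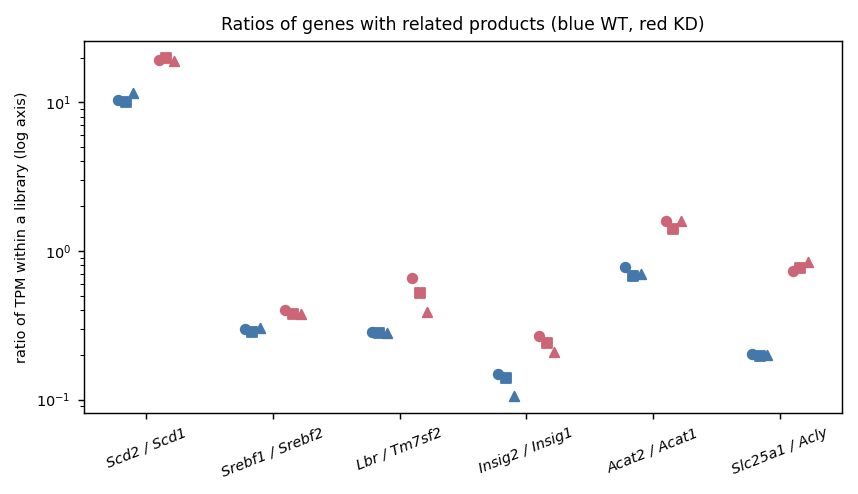
Ratio of TPM within each library (vertical log axis) for 6 pairs of genes with related products, WT in blue and KD in red, with circles, squares and triangles for replicates 1, 2 and 3. In all 6 pairs every KD library lies above every WT library, and the Lbr to Tm7sf2 ratio spreads from 0.388 to 0.657 among the KD libraries. The pairs were chosen after their values were seen.

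The 36 genes did not differ by the same amount in the 3 same-numbered pairs of libraries. The median log2 difference of the 36 genes was -0.30 in pair 1 and -0.26 in pair 2 but -0.01 in pair 3, while the median of all genes was within 0.01 of 0 in each pair. In pairs 1 and 2, 29 of the 36 genes were lower in KD, and in pair 3, 19 were. Over all genes, 49.9%, 50.6% and 49.7% were lower in KD in pairs 1, 2 and 3. KD replicate 3 was the highest of the KD libraries in 32 of the 36 genes, against 34.0% of all genes tested, and it was nearest the WT mean in 27 of 36, against 39.7%. WT replicate 3 was the lowest WT library in 22 of 36, against 36.3%. KD replicate 3 was also the KD library with the most Ybx1 left, yet it had the highest Slc25a1, and the part of the remaining Ybx1 in this difference between libraries was not tested.

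**Figure D4:**
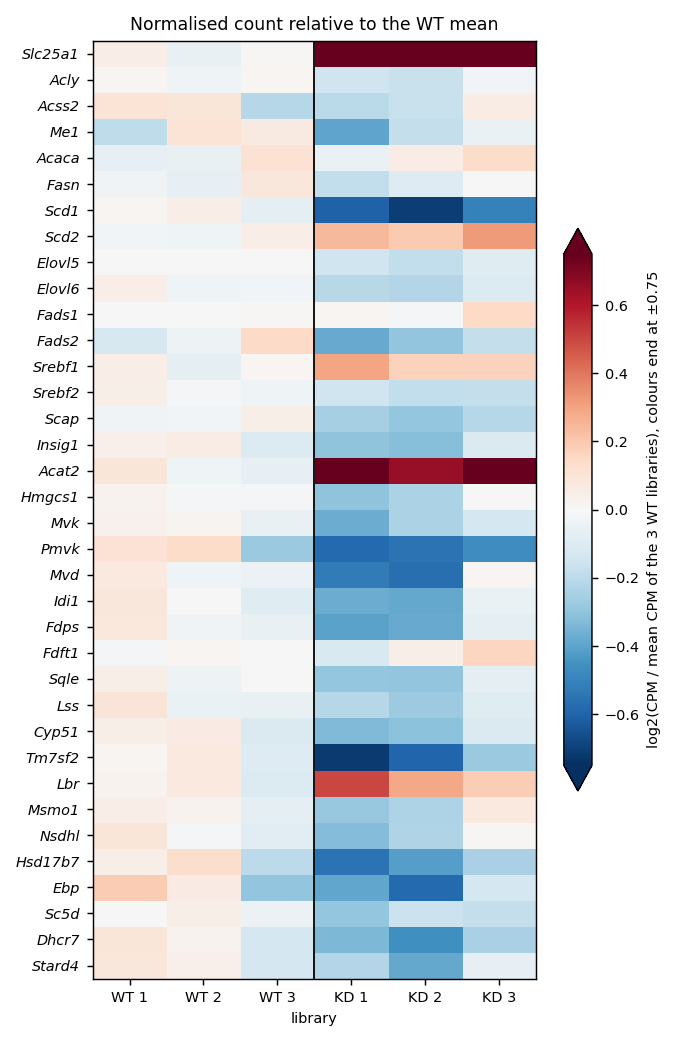
Log2 of the normalised count over the mean of the 3 WT libraries (colour, ending at ±0.75) for the 36 genes (rows, in the order of their roles) in the 6 libraries (columns). Blue is lower and red is higher than the WT mean. Most sterol genes are blue in KD replicates 1 and 2 and paler in KD replicate 3, while Slc25a1, Acat2 and Lbr are red in all 3 KD libraries and Fdft1 is near the WT mean.

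All 3 KD libraries were below all 3 WT libraries in 16 of the 36 genes, against 20.6% of all genes tested. They were above them in 5 of 36, Slc25a1 among them, against 21.0%. When the replicate number was entered as a block, Scd2, Srebf1, Acat2 and Lbr were still higher and 22 genes were lower. Slc25a1 is left out of this statement because it was picked for its rise. In that fit 18.6% of all genes were higher and 18.1% lower. The spread within groups was unequal for these genes, with a median coefficient of variation of 5.16% in WT and 8.31% in KD, against 6.76% and 6.34% over all genes tested.

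The counts of lower genes depended on single libraries. Without WT replicate 2, 3 of the 36 genes (8.33%) were lower, against 5.78% of all genes tested in that fit. Without KD replicate 2 there were 4 (11.1%), against 6.15% of all genes. Without WT replicate 1 or KD replicate 1 there were 6 (16.7%), against 8.2% and 7.81%, so in these 4 fits the share among the 36 genes lay closer to that of all genes. Without KD replicate 3 there were 20 (55.6%), against 9.14%. Leaving Slc25a1 aside, Scd1, Scd2, Scap, Acat2 and Pmvk were past the threshold under all 15 alternatives run, and the other 14 genes that passed did so under 8 to 13 of them. None of the 36 genes was called in the opposite direction under any of these. The fit on log2(TPM + 1) left 6 lower and 5 higher genes of the 36, with a median of -0.14, and 7.84% of all genes lower.

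In the neighbouring parts of metabolism that make or use citrate and lipid, genes rose and fell within each list. Of 20 genes of the TCA cycle and pyruvate entry, 1 rose and 3 fell, or 4 and 4 with the replicate block, where 12% of all genes rose and 11.9% fell, or 18.6% and 18.1% with the block. Cs, the citrate synthase, fell by 0.28 on the log2 scale (adjusted P = 0.00675), so that the Slc25a1 to Cs ratio in TPM went from 0.114 ± 0.00953 to 0.501 ± 0.0577 (SD, n = 3). Idh2 rose by 0.42, and Ogdh (-0.29) and Pcx (-0.24), the pyruvate carboxylase, fell. Of 14 genes of fatty acid oxidation, 1 rose and 2 fell, or 2 and 3 with the block. Hadha rose by 0.27 while Acadl (-0.37) and Acaa2 (-0.33) fell. Of 7 genes that supply cytosolic NADPH, Mthfd1 rose by 0.38 while Pgls (-0.21) and Tkt (-0.17) fell. Of 9 tested genes of sterol efflux and the oxysterol response, 1 rose and 2 fell, or 1 and 3 with the block. Mylip, which marks lipoprotein receptors for breakdown, rose by 0.48. Npc2, which carries cholesterol out of lysosomes, fell from 100.4 ± 1.42 to 67.2 ± 5.71 CPM (SD, n = 3). The fall of Npc2 was 0.58 on the log2 scale (SE 0.07, adjusted P = 0.000865), and Abcg4 fell by 0.27.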

How the data were processed

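Total RNA from cultured cortical cells was made into mRNA libraries and sequenced on the DNBSEQ platform. The deposited table gives an estimated count per gene and library, with 2 decimals, and a TPM value, both made by the authors. The submitters' processing notes name HISAT2 2.2.1, Bowtie2 2.4.5 and RSEM 1.3.1 with the builds GRCm38 and mm10, and the role of each tool is not given in the sources used here. Fractional counts mark reads split among similar sequences, which makes those genes less certain, and 89.3% to 89.9% of the values were whole. Groups and replicate numbers came from the sample titles, and the table's Ctrl columns were matched to WT by number. The 6 FPKM columns and 6 group mean columns were not used.

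Estimated counts were rounded and tested in edgeR 4.0.16 (R 4.3.3) with TMM scaling, filterByExpr (minimum count 10) and the quasi-likelihood test for KD versus WT, adjusted by the Benjamini-Hochberg method over 13669 genes. Standard errors (SE) were obtained from the F statistic, as the size of the log2 fold change over the root of F. The edgeR coefficient of variation between libraries was 7.7%. Scripts were tested on simulated data. TPM ratios were taken within libraries. Same-numbered libraries deviated together, with correlations of 0.351, 0.32 and 0.178 over genes against -0.276 to -0.018 for other pairs. Deviations were taken from each group's own mean, so positive values for some pairs push those of other pairs down. The titles give replicate numbers but state no pairing, so whether the numbers pair the libraries is not settled. A fit with the number as a block was run as well. The series text speaks of 3 sequencing batches over biological replicates and does not say which library is in which batch.

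The genes of the list, the further lists and the comparisons were chosen with earlier results of these data known, so no count here is independent support. All 36 genes were named, and for each further list the genes past the threshold, at most 4 by size of log2 fold change. Alternatives were other scalings (RLE, upper quartile, total count), no filter, DESeq2 1.42.0, limma-voom and limma-trend on log2(TPM + 1) with limma 3.58.1, the block, and leaving out each library. A fit without the third pair was added after seeing the data.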

Additional observations from a re-analysis of the deposited data

How the results depend on the processing

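Over all genes, 3277 were called, and 5009 with the replicate block (2539 higher, 2470 lower). Leaving out 1 library gave 1576 to 3195 genes called, 3 to 20 of the 36 lipid genes lower, 3 to 5 higher, and a median log2 fold change of -0.27 to -0.16. The fit on log2(TPM + 1) gave 6 lower, with a median log2 fold change of 0.05 over all genes. Without the third pair, an alternative added after seeing the data, 24 were lower and 3 higher, with Srebf1 and Lbr no longer past the threshold. In that fit 9.85% of all genes were lower. Slc25a1, picked for its rise, was among the higher genes in each count given here. The block added Elovl5, Me1, Hmgcs1, Mvd, Idi1, Lss and Stard4 to the lower genes and changed no other call among the 36. The only change of sign was in Fdft1, which did not pass in any fit, at -0.03 without KD replicate 3 (range 0.11 to -0.03 over the fits without 1 library) and -0.029 without the third pair. The cause of these changes was not tested. The fits that leave some libraries out also differ from the main fit in holding fewer libraries. Total count scaling gave 11 lower genes of the 36 with a median of -0.17, and upper quartile scaling gave 16 lower and 4 higher with a median of -0.22. The split of all called genes was 1646 higher and 1631 lower, against 2076 and 1072 in TPM. With 3 libraries in each group, log2 differences near 0.2 lay at the edge of what passed the threshold.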
